A study of Homo sapiens with 11 samples.

Results

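The 10 genes examined encode the kinases and mediator proteins of the DNA damage checkpoint: ATM, ATR, PRKDC, CHEK1, CHEK2, ATRIP, TOPBP1, CLSPN, MDC1 and TP53BP1. They were taken by gene symbol from the deposited count tables, which hold 23228 genes, and all 10 were among the 15888 genes that passed the filter on low counts. The checkpoint halts the cell cycle and starts repair when DNA is broken or replication stalls. ATM and DNA-PKcs respond to double-strand breaks, ATR responds to single-stranded DNA at stalled forks, and both routes pass through the effector kinases CHEK2 and CHEK1. These proteins are regulated largely by phosphorylation and recruitment to damaged DNA, which RNA counts do not measure.

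RNA-seq had been run on 11 libraries of MDA-MB231 cells, a basal breast cancer line, and U2OS cells, an osteosarcoma line. In each line 1 library was made after 8 h of each of 4 drugs: the DNA-methylating agent methyl methanesulfonate (MMS) at 40 µg/mL, the microtubule stabiliser paclitaxel at 0.2 µM, and the topoisomerase II poisons doxorubicin at 1 µM and etoposide at 20 µM. Doxorubicin also intercalates in DNA, and etoposide does not. The design text gives these doses as the 72 h IC50. U2OS had 1 library with the vehicle DMSO and MDA-MB231 had 2. MDA-MB231 DMSO replicate 1 has a title without a time, as have the doxorubicin, etoposide and paclitaxel libraries of that line, and was their control. MDA-MB231 DMSO replicate 2 has 8hr in its title, as has the MDA-MB231 MMS library, and was its control, although its description calls it untreated while its treatment label reads DMSO.

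Each library held between 16774156 and 31588683 gene counts. Reads aligned to several places made up 34.4% and 37.5% of the reads in the doxorubicin libraries and 28.4% to 32.9% in the other 9. MDA-MB231 libraries held VIM, CD44 and EGFR reads, with at most 8 KRT5 reads and 10 KRT14 reads, so these 2 basal keratins were near 0. U2OS libraries held SPARC, COL1A1, RUNX2 and ALPL reads, with at most 3 reads of COL1A2 and 2 each of BGLAP and IBSP, so these bone matrix genes were at or near 0. Several of these markers were present in both lines. In DMSO libraries RUNX2 was at 23.3 CPM (gene counts scaled to library size) in U2OS and 31.94 to 34.35 in MDA-MB231. VIM was at 1850 and 2145 to 2374 CPM, and KRT18, listed for MDA-MB231, at 408.6 and 202 to 245.4 CPM. SPARC was at 934.6 and 0.75 to 1.5 CPM, COL1A1 at 48.6 and 10 to 12.9, and ALPL at 7.84 and 0. Each drug's change from DMSO was fitted with edgeR over all 11 libraries as a mean over both lines, which served as the 2 replicates of a drug. The labels do not say whether libraries came from separate cultures, and the p-values measure only the spread between these libraries.

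Promoter sequences were looked up for the 10 genes because 6 of them moved together with doxorubicin, as described below. Of the 10 symbols, 9 matched RefSeq promoters (GRCh38.p14, 300 bases that span the start), and PRKDC did not. The letters TTTCCCGC, TTTCGCGC, TTTGCCGC and TTTGGCGC, which are forms of the binding word of the E2F cell cycle factors, were searched on both strands and occur in 3.31% of 35116 promoters. A match is a description of the letters only. One word was found in the promoter of CLSPN (chr1:35769929-35770228, minus strand) and 1 in that of TOPBP1 (chr3:133661892-133662191, minus strand), and none in the windows of the other 7 matched genes. Both are printed 5′ to 3′ on the gene's strand with the E2F word in capitals.
CLSPN: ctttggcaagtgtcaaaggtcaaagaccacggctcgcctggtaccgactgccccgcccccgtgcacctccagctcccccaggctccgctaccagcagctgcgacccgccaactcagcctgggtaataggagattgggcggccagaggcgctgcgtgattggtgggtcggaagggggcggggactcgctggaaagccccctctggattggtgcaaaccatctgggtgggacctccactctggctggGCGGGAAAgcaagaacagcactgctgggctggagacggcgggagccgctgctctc
TOPBP1: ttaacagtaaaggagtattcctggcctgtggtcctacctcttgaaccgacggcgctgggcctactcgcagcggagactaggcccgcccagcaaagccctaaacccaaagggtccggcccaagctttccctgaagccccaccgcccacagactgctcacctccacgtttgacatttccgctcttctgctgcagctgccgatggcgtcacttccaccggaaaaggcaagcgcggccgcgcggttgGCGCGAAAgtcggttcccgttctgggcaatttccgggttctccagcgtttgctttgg
The word begins 5 bases before the annotated start in CLSPN and 7 bases before it in TOPBP1, and its last bases reach the start in both. ATM is shown for another reason. Its exons share 143 bases with those of NPAT, a histone gene activator on the opposite strand, and the changes of both genes are given below. The window of its first listed start (chr11:108222817-108223116, plus strand) holds no E2F word.
ATM: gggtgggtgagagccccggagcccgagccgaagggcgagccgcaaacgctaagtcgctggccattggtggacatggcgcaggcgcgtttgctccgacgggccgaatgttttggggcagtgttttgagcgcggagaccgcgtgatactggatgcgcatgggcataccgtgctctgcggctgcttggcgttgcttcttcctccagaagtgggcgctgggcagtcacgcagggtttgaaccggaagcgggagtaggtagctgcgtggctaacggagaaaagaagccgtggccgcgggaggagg

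Without drug, the 10 genes differed in level and between the lines. PRKDC encodes DNA-PKcs, the catalytic subunit of the end-joining kinase. Per kilobase of transcript it was the highest in U2OS with DMSO, at 76.4 CPM per kb (CPM with TMM-adjusted library sizes). The 2 MDA-MB231 DMSO libraries had 27.8 and 49.6 CPM per kb of PRKDC. CHEK1 followed in U2OS at 32.8 CPM per kb and led in MDA-MB231 at 55.4 and 63.6 CPM per kb. The CHEK1 transcript used has 1670 bases, while the annotated exons of CHEK1 together cover 6558, so this rank depends on the transcript chosen. ATRIP was the lowest in U2OS at 4.76 CPM per kb and CHEK2 the lowest in MDA-MB231 at 3.74 and 4.07 CPM per kb. In DMSO libraries CHEK2 was 3.56-fold to 3.87-fold higher in U2OS than in MDA-MB231, TP53BP1 1.95-fold to 2.28-fold higher and CHEK1 0.516-fold to 0.593-fold as high. Over all libraries and treatments together, the lines did not overlap in CPM for MDC1, at 129 to 200.7 in U2OS (n = 5) and 79.9 to 105 in MDA-MB231 (n = 6). CHEK1 overlapped only at its ends, with a highest value of 65.29 CPM in U2OS and a lowest of 65.25 CPM in MDA-MB231. Within each treatment CHEK1 was lower, and CHEK2 and TP53BP1 were higher, in U2OS than in MDA-MB231. The share of all genes whose lines do not overlap was not counted. These line levels come from 1 or 2 DMSO libraries each and were not tested.

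**Figure D1:**
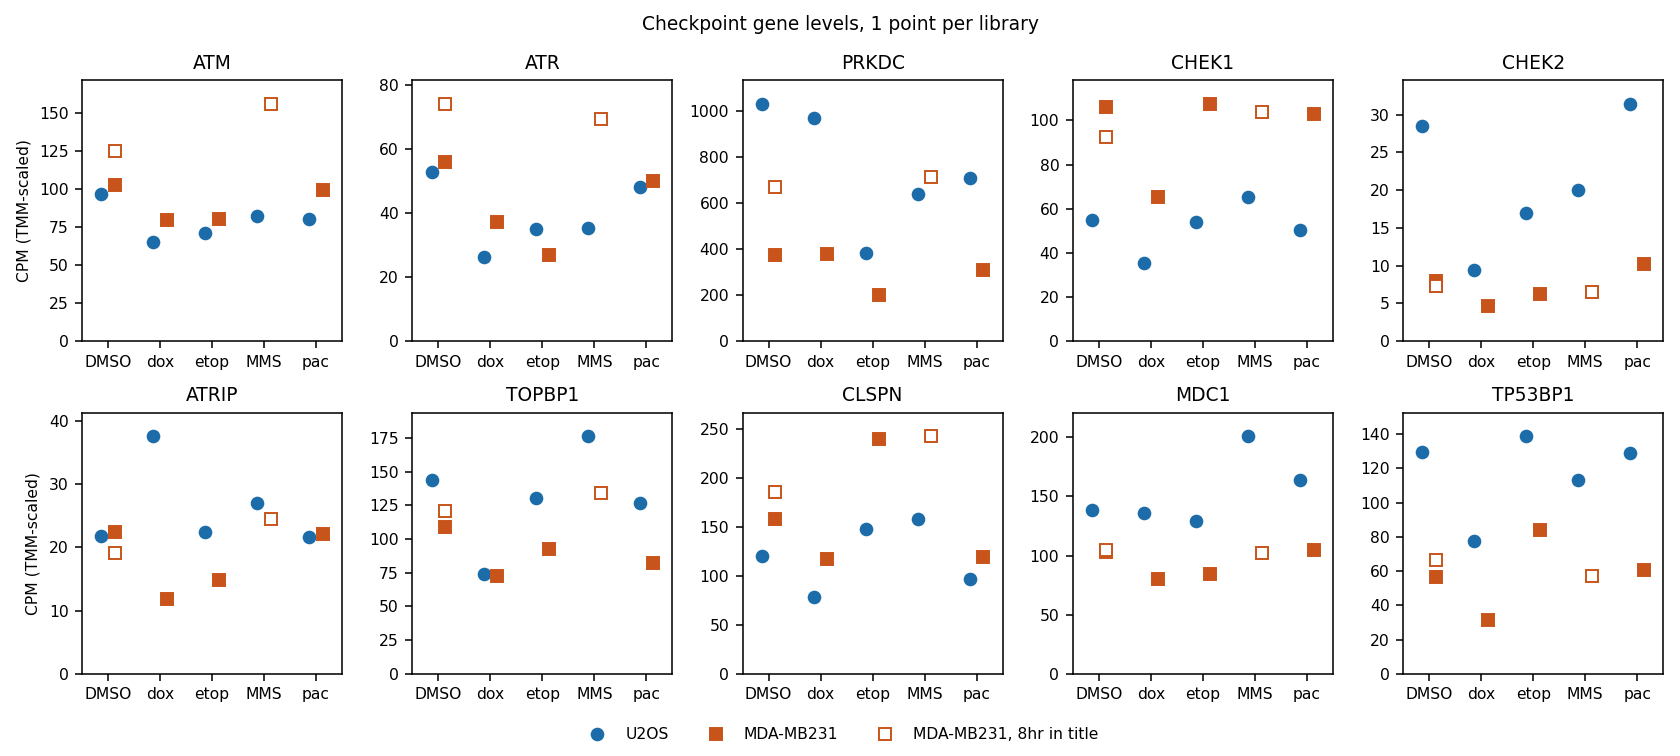
Level of each checkpoint gene in every library, in TMM-scaled CPM (y axis, from 0), by treatment (x axis; dox, doxorubicin; etop, etoposide; pac, paclitaxel). Circles are U2OS, filled squares MDA-MB231 and open squares the MDA-MB231 libraries with 8hr in the title. CHEK1 was lowest with doxorubicin in both lines, and PRKDC was lowest with etoposide in both lines.

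The comparison of each drug with DMSO addresses whether the transcripts of the checkpoint apparatus change during the damage response. Doxorubicin lowered the RNA of 6 of the 10 genes and raised none: ATR, CHEK1, CHEK2, TOPBP1, CLSPN and TP53BP1. The effector kinase CHEK2 fell by 1.18 ± 0.26 (SE, log2 scale, n = 2 lines), the largest change of the 10, and the 5 others fell by 0.53 to 0.80 on the log2 scale. Among all genes tested 42.5% passed the same threshold (edgeR's quasi-likelihood test, Benjamini-Hochberg adjusted p under 0.05) and 20.6% passed it in the lower direction. The median log2 change was -0.60 over the 10 genes and 0.067 over all genes, while the median size of change was 0.60 and 0.71. In bulk RNA, fewer cells of a kind and less RNA per cell cannot be told apart.

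**Figure D2:**
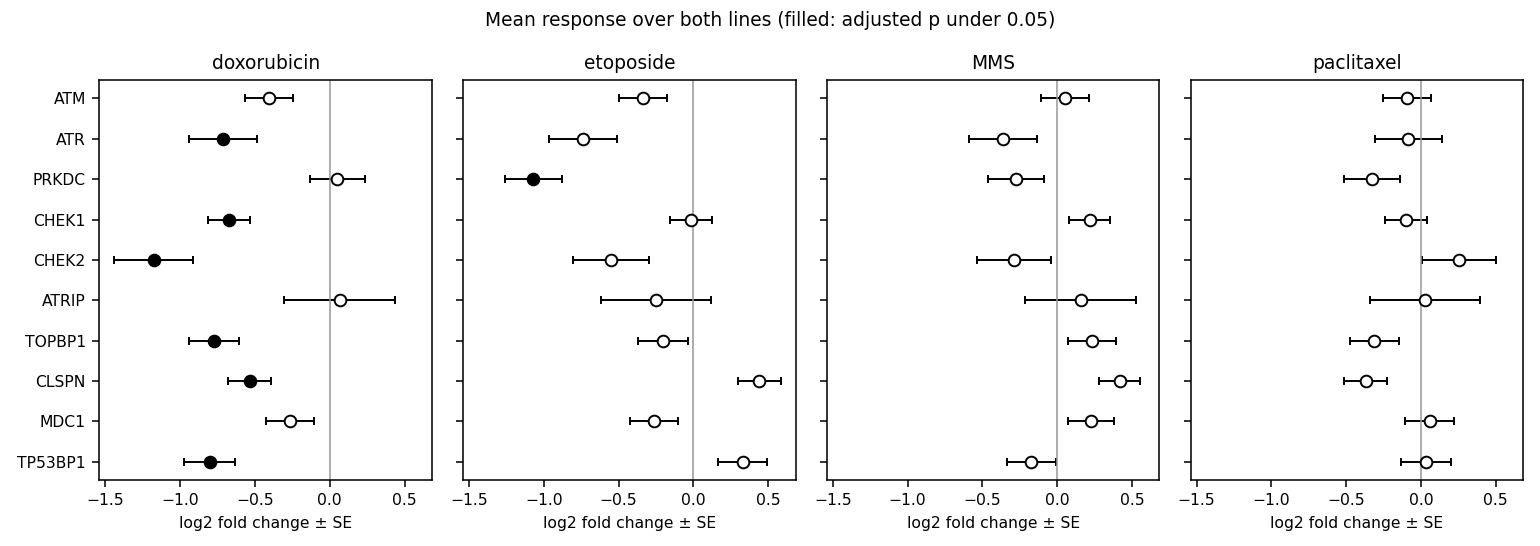
Fitted log2 fold change against DMSO, mean over both lines, ± SE (x axis) for each checkpoint gene (y axis) and drug (panels). Filled points passed an adjusted p under 0.05: 6 genes with doxorubicin, PRKDC alone with etoposide, and no gene with MMS or paclitaxel.

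Of the apical kinases, ATR passed the test with doxorubicin and ATM and PRKDC did not. ATR had 52.8 CPM with DMSO and 26.3 CPM with doxorubicin in U2OS, and 55.9 and 37.4 CPM in MDA-MB231. Both doxorubicin libraries lay below all 3 DMSO libraries, and the fitted change was -0.71 ± 0.23 (edgeR adjusted p = 0.032). ATM, the main kinase of the response to breaks, was at 97.1 CPM with DMSO and 65.2 with doxorubicin in U2OS and at 102.7 and 79.7 CPM in MDA-MB231, a change of -0.41 ± 0.16 that did not pass (edgeR adjusted p = 0.0692). ATM was called under 6 of 19 alternative settings, and the difference between ATM and ATR was not tested. NPAT, which overlaps ATM, fell by 1.68 ± 0.32 (edgeR adjusted p = 0.0036). U2OS had 49.8 and 22.4 CPM of it, and MDA-MB231 64.8 and 12.6 CPM. The difference between NPAT and ATM was not tested. PRKDC stood at 1032 and 971.3 CPM in U2OS and at 375.3 and 379.4 CPM in MDA-MB231, a change of 0.050 ± 0.18 (edgeR adjusted p = 0.847).

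Among the genes that work with ATR, TOPBP1 and CLSPN passed with doxorubicin and ATRIP did not. The differences between them were not tested. TOPBP1, the activator of ATR at stalled forks, was at 143.5 CPM with DMSO and 74.2 with doxorubicin in U2OS, and at 108.8 and 72.8 CPM in MDA-MB231. It fell by 0.78 ± 0.17 (edgeR adjusted p = 0.00617), with both doxorubicin libraries below every other library of the series. CLSPN encodes claspin, the adaptor through which ATR phosphorylates CHEK1, and was at 120.5 and 78.4 CPM in U2OS and at 158.4 and 117.4 CPM in MDA-MB231. The fitted change was -0.53 ± 0.14 (edgeR adjusted p = 0.0162), and each doxorubicin library was the lowest of its line. ATRIP, the subunit that brings ATR to single-stranded DNA, moved apart in the lines: it was at 21.8 and 37.5 CPM in U2OS and at 22.5 and 11.8 CPM in MDA-MB231, with a fitted change of 0.067 ± 0.37 (edgeR adjusted p = 0.9). ATRIP shares 27.9% of its exon bases with TREX1, an exonuclease gene on the same strand, so reads there fit both genes. Reads labelled ambiguous stayed out of the counts. TREX1 was at 11.4 and 22.9 CPM in U2OS and at 8.18 and 9.08 CPM in MDA-MB231, and its part in the ATRIP values was not tested.

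Both effector kinases were lower. CHEK1 was at 54.8 CPM with DMSO and 35.7 with doxorubicin in U2OS, and at 106.2 and 65.3 CPM in MDA-MB231, and fell by 0.67 ± 0.14 (edgeR adjusted p = 0.00549). Each doxorubicin library was the lowest of its line. CHEK2 was at 28.5 and 9.48 CPM in U2OS and at 8.03 and 4.63 CPM in MDA-MB231 (edgeR adjusted p = 0.00703). The lower MDA-MB231 value rests on 99 reads, the fewest of any of the 10 genes in any library. The annotation names 4 pseudogenes after CHEK2, so its counts may miss reads that align to several places.

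Of the 2 mediators that gather at broken chromatin, TP53BP1 passed and MDC1 did not, and the difference between them was not tested. TP53BP1 encodes 53BP1, which protects breaks from resection, and was at 129.6 and 77.7 CPM in U2OS and at 56.8 and 31.4 CPM in MDA-MB231. It fell by 0.80 ± 0.17 (edgeR adjusted p = 0.00558), and each doxorubicin library was the lowest of its line. TUBGCP4, which overlaps 28.7% of the TP53BP1 exon bases on the opposite strand, rose by 0.60 ± 0.17 (edgeR adjusted p = 0.0203). MDC1, the scaffold that reads phosphorylated H2AX, was at 138.7 and 136.3 CPM in U2OS and at 103.4 and 79.9 CPM in MDA-MB231, a change of -0.27 ± 0.16 that did not pass (edgeR adjusted p = 0.211).

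Several doxorubicin calls were lost when 1 library was left out. Without the U2OS doxorubicin library, which leaves 1 doxorubicin library, the log2 change was -0.39 for ATR and -0.81 for CHEK2. It was -0.47 for TOPBP1 and -0.41 for CLSPN, and none of these genes still passed in edgeR. Without the U2OS DMSO library 3 of the 10 genes were called, beside 4366 of all genes. ATR (log2 change -0.65, edgeR adjusted p = 0.118), CHEK2 (-0.998, 0.0513) and CLSPN (-0.50, 0.0848) did not pass. Without MDA-MB231 DMSO replicate 1, ATR (-0.65, adjusted p = 0.152) and CLSPN (-0.59, 0.0596) did not pass. In each of these fits the sign of every called gene was kept. Scaling by total gene counts moved the median of all genes with doxorubicin to -0.33 in U2OS, where it was -0.018, and to -0.22 in MDA-MB231, where it was -0.10. With that scaling 8 of the 10 genes were called lower, ATM and MDC1 added, beside 6517 of all genes called in either direction.

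Blood and immune marker RNA moved with doxorubicin. Of 9 such genes 5 could be tested, and ITGAM, LYZ and CD68 rose. ITGAM and LYZ were low. ITGAM had at most 61 reads in any U2OS library and 59 in any MDA-MB231 library, and LYZ at most 6 and 14. LYZ was at 0.049 CPM with doxorubicin in U2OS. ITGAM was also called higher with etoposide (log2 change 4.28, edgeR adjusted p = 0.0312). EPCAM, 1 of 2 luminal epithelium markers, rose by 1.11 ± 0.26 from low levels, and neither of 2 endothelium markers passed. The summed level of the 9 blood and immune genes was 21.9 CPM with DMSO, 55.1 with doxorubicin and 15.3 to 28.8 with the other drugs in U2OS, and 117.7 and 133.5 CPM with DMSO, 236.4 with doxorubicin and 97.4 to 180.4 with the other drugs in MDA-MB231. CD68, a lysosomal gene that these lines also express, made up nearly all of it, HBB was at 0 in every library, and CD3E had at most 2 reads. The part of these RNAs in the checkpoint values was not tested.

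With etoposide 1 of the 10 genes was called, the kinase PRKDC. It was at 1032 CPM with DMSO and 385.2 with etoposide in U2OS, and at 375.3 and 201.4 CPM in MDA-MB231, and each etoposide library was the lowest of its line. The fitted change was -1.07 ± 0.19 (edgeR adjusted p = 0.0106). In MDA-MB231 the log2 ratio with etoposide was -0.90, while the 2 DMSO libraries of that line differed for PRKDC by 0.84. In U2OS PRKDC was also below DMSO with MMS (640.8 CPM), paclitaxel (712.3) and doxorubicin (971.3). Among all genes 17.2% were called and 9.23% in the lower direction. The call was lost when any 1 of 4 libraries was left out: the adjusted p in edgeR was 0.0781 without MDA-MB231 DMSO replicate 1, 0.0543 without the MDA-MB231 etoposide library, 0.0594 without the U2OS DMSO library and 0.0562 without the U2OS etoposide library, with changes of -1.24 to -0.88.

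The other 9 genes did not pass with etoposide. ATR came nearest, at 52.8 and 35.1 CPM in U2OS and 55.9 and 26.9 CPM in MDA-MB231, a change of -0.74 ± 0.23 (edgeR adjusted p = 0.0537). CLSPN was higher in both lines, at 120.5 and 148 CPM in U2OS and 158.4 and 239.4 CPM in MDA-MB231, a change of 0.44 ± 0.14 (edgeR adjusted p = 0.0622). DESeq2 called ATR (adjusted p = 0.0142) and CLSPN (0.0311), limma-voom called ATR (0.0386) and CLSPN (0.047), and over 19 alternative settings ATR was called in 9 and CLSPN in 4. CHEK2 had a fitted change of -0.55 ± 0.25, ATM of -0.34 ± 0.16 and TP53BP1 of 0.33 ± 0.17. CHEK1 was at 54.8 and 53.9 CPM in U2OS and at 106.2 and 107.4 CPM in MDA-MB231, a change of -0.015 ± 0.14. At an unadjusted p under 0.05 the count was 3 of the 10 genes and 5354 of all genes.

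MMS and paclitaxel gave no call among the 10 genes. With MMS edgeR called 0 of 10 beside 10.4% of all genes, and 1 of the 10 had an unadjusted p under 0.05, as had 4626 of all genes. CLSPN was the nearest, at 120.5 and 158.3 CPM in U2OS and 185.7 and 242.1 CPM in MDA-MB231, a change of 0.42 ± 0.14 (edgeR adjusted p = 0.0854). DESeq2 called CLSPN (adjusted p = 0.0345), limma-voom called none. ATR changed by -0.36 ± 0.23 and PRKDC by -0.28 ± 0.19 in the fit, neither past the threshold. With paclitaxel edgeR, DESeq2 and limma-voom each called 0 of the 10, and edgeR called 0% of all genes. An unadjusted p under 0.05 was found for 1 of the 10 and for 110 of all genes. The largest fitted changes were -0.37 ± 0.14 for CLSPN, -0.33 ± 0.19 for PRKDC and -0.31 ± 0.17 for TOPBP1, each with an edgeR adjusted p of 1.

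Doxorubicin and etoposide both act on topoisomerase II, and their difference was tested directly in the same fit. Of the 10 genes 5 differed, beside 46.4% of all genes. PRKDC was higher with doxorubicin than with etoposide by 1.12 ± 0.20 (log2, edgeR adjusted p = 0.00182), in both lines. TP53BP1 was lower with doxorubicin by -1.13 ± 0.18 (edgeR adjusted p = 0.00105), CLSPN by -0.98 ± 0.15 (0.00096), CHEK1 by -0.66 ± 0.15 (0.00584) and TOPBP1 by -0.57 ± 0.17 (0.0231). The TOPBP1 call was lost without the U2OS doxorubicin library (adjusted p = 0.209), the U2OS etoposide library (0.098) or the MDA-MB231 etoposide library (0.0573). ATR differed by 0.025 ± 0.24, ATM by -0.071 ± 0.17 and MDC1 by -0.002 ± 0.17, none past the threshold.

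**Figure D3:**
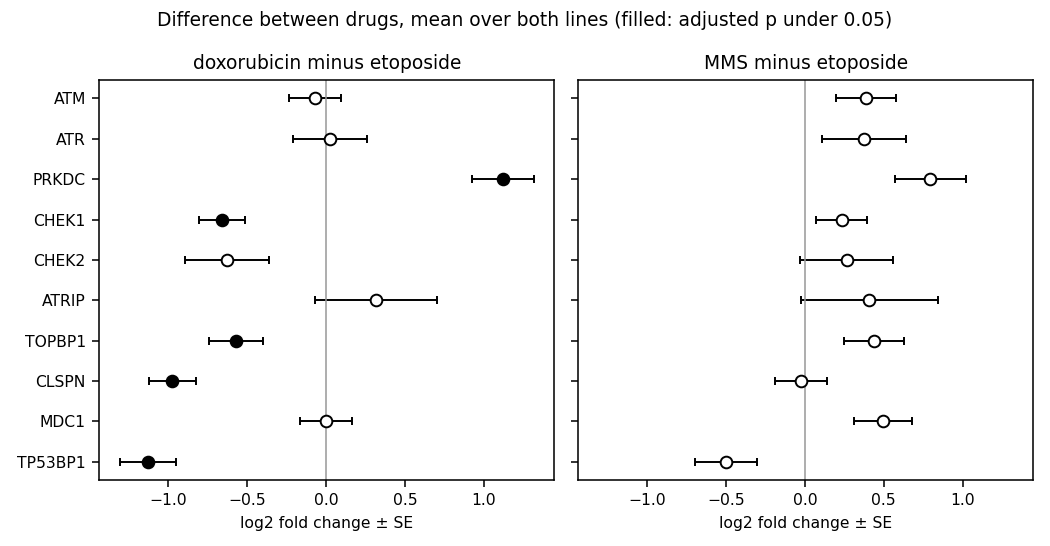
Difference between drugs in fitted log2 change, mean over both lines, ± SE (x axis), for each checkpoint gene (y axis). Left, doxorubicin minus etoposide, where PRKDC was higher and CHEK1, TOPBP1, CLSPN and TP53BP1 were lower with doxorubicin (filled). Right, MMS minus etoposide, where no gene passed.

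Between MMS and etoposide no gene of the 10 was called by edgeR, beside 9.06% of all genes, and 4 of 10 had an unadjusted p under 0.05 against 4450 of all genes. PRKDC was higher with MMS by 0.80 ± 0.23 (edgeR adjusted p = 0.0584), and DESeq2 (0.00959) and limma-voom (0.0421) called it. This comparison sets MDA-MB231 libraries with and without 8hr in the title against each other only through their own DMSO libraries.

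Within each line, single libraries were compared with their DMSO library with exact binomial (Clopper-Pearson) 95% intervals, which cover counting error only. With doxorubicin 1 of the 10 genes was changed at least 2-fold in U2OS (CHEK2, log2 ratio -1.54, interval -1.83 to -1.35), beside 32.6% of all genes. In MDA-MB231 it was 0 of 10 beside 27%. With etoposide the count was 1 in U2OS (PRKDC, -1.42, interval -1.45 to -1.39) beside 13.6%, and 1 in MDA-MB231 (ATR, -1.04, interval -1.18 to -0.93) beside 19.8%. With MMS none of the 10 reached 2-fold, beside 18.6% of all genes in U2OS and 6.11% in MDA-MB231. With paclitaxel none did, beside 0.0888% in U2OS and 0.471% in MDA-MB231. These counts have no replicate check.

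The lines moved the same way for most of the 10 genes, and the share of all genes that did so was not counted. With doxorubicin 8 of the 10 ratios were below 0 in both lines and 2 had opposite signs. With etoposide 6 were below 0 and 2 above 0 in both lines, with MMS 3 and 4, and with paclitaxel 7 and 2. A term for treated U2OS cells, which tests for a line difference in the response averaged over the 4 drugs, called none of the 10 in edgeR beside 0% of all genes. Its fitted values ran from -0.46 to 0.49 over the 10 genes, with 0 of 10 and 204 of all genes at an unadjusted p under 0.05. DESeq2 and limma-voom also called none of the 10.

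**Figure D4:**
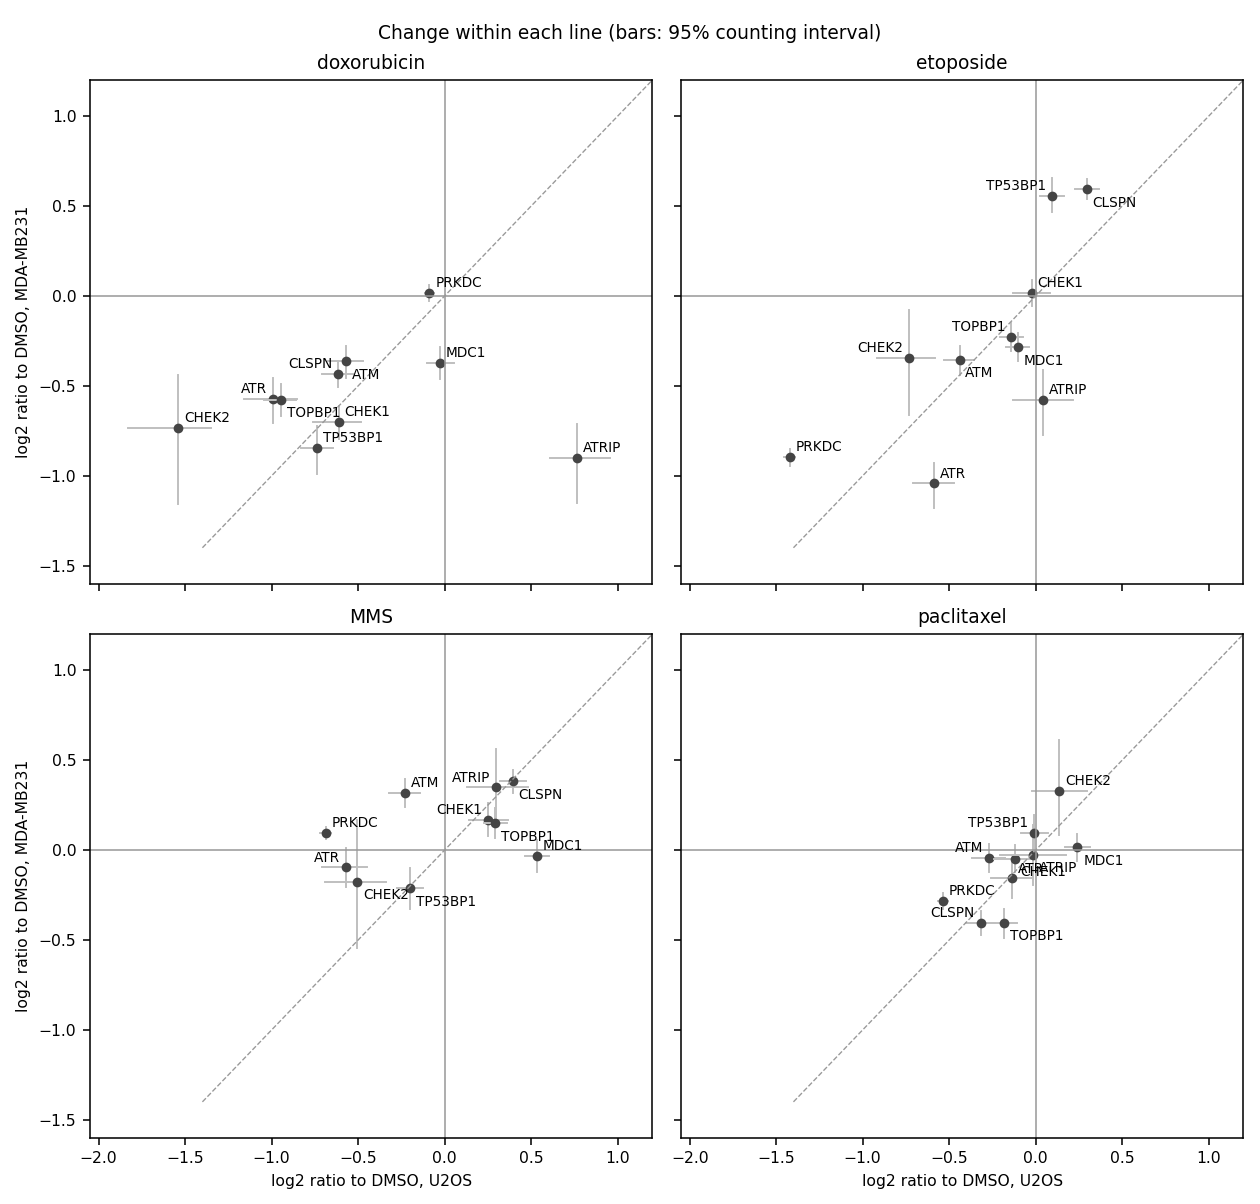
Log2 ratio to DMSO in U2OS (x axis) and MDA-MB231 (y axis) for each checkpoint gene and drug, with 95% intervals for counting error (bars) and the line of equal ratios (dashed). ATRIP with doxorubicin lies at 0.77 and -0.90, away from the other genes.

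The 2 MDA-MB231 DMSO libraries differed for PRKDC more than for any other of the 10 genes. PRKDC was at 375.3 CPM in replicate 1 and 670 CPM in replicate 2, a log2 difference of 0.84 (interval 0.80 to 0.88), beside a median absolute difference of 0.23 over the 10 genes and 0.18 over all 10832 genes compared. None of the 10 reached 2-fold, as 1.78% of all genes did. The PRKDC ratio with doxorubicin in MDA-MB231 was 0.016 against replicate 1 and -0.82 against replicate 2, and with etoposide -0.90 and -1.73. With MMS it was 0.095 against replicate 2, its own control, and 0.93 against replicate 1. Over the 10 genes the sign was the same against either library for 10 with etoposide, 9 with doxorubicin, 7 with MMS and 6 with paclitaxel. Both ratios of a gene use the same drug library, and the share of all genes with the same sign was not counted.

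**Figure D5:**
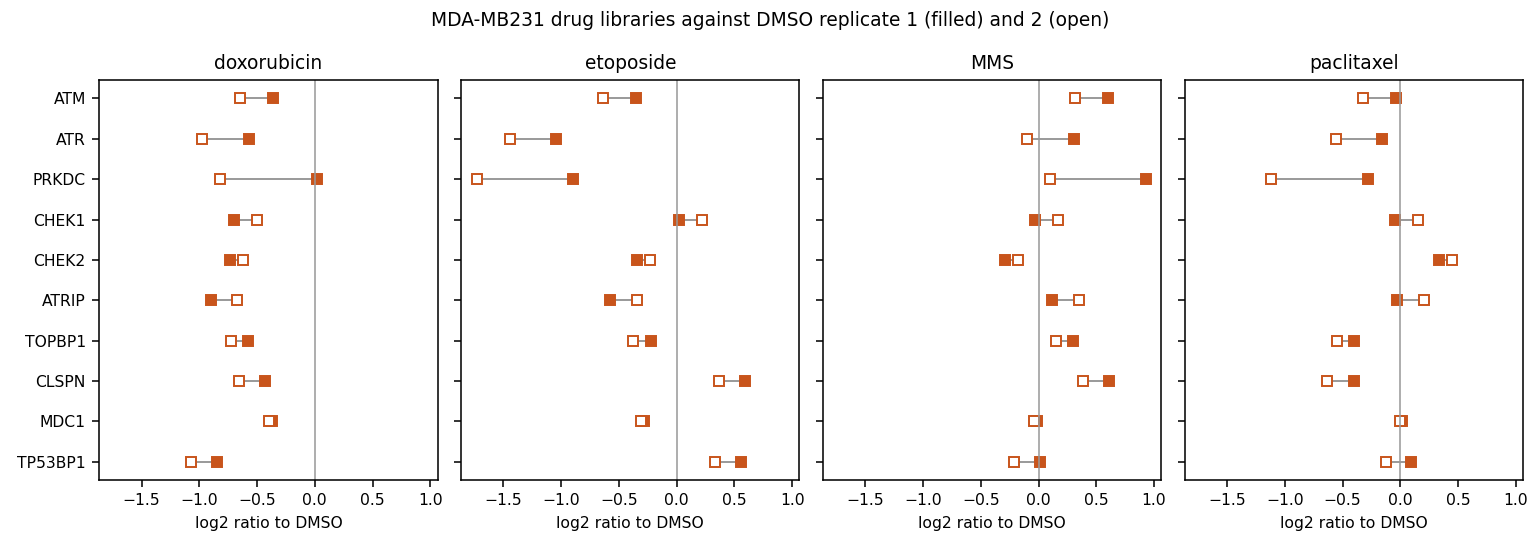
Log2 ratio of each MDA-MB231 drug library to DMSO replicate 1 (filled) and replicate 2 (open) for each checkpoint gene. PRKDC has the widest gap between the 2 controls, 0.84 on the log2 scale.

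Other genes of the pathway were counted from lists, to be read against the share of all genes tested, of which 21.9% rose and 20.6% fell with doxorubicin. Of 16 damage sensors, the proteins that find breaks and forks, 4 rose and 7 fell with doxorubicin, among them the MRN complex genes NBN (-2.03 ± 0.19) and RAD50 (-1.36 ± 0.22), TIPIN of the fork protection complex (-2.08 ± 0.35) and RAD17, the clamp loader (-0.97 ± 0.17). Of 14 chromatin and ubiquitin mediators 1 rose and 6 fell, among them H2AFX (-2.61 ± 0.23), RIF1 (-2.24 ± 0.17), a 53BP1 effector, BARD1 (-1.52 ± 0.23), the BRCA1 partner, and UIMC1 (-1.54 ± 0.26). Of 8 cofactors that keep these kinases stable, 3 rose and 1 fell, TELO2 (0.59 ± 0.21) and RUVBL2 (0.52 ± 0.15) upward. Of the 3 other kinases of the same family, TRRAP fell (-1.17 ± 0.16), MTOR (-0.21 ± 0.13) and SMG1 (-0.51 ± 0.21) did not pass.

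Downstream of the kinases, 0 of 14 checkpoint effectors rose and 6 fell with doxorubicin (21.9% and 20.6% of all genes), including MDM2, a ubiquitin ligase (-2.56 ± 0.21), PLK1 (-2.48 ± 0.48) and CCNB1 (-2.17 ± 0.26). CDKN1A, which encodes the cyclin-dependent kinase inhibitor p21, was at 263.5 CPM with DMSO and 91.2 with doxorubicin in U2OS, and at 150 and 286 CPM in MDA-MB231. The lines thus went opposite ways, and the fitted mean was -0.32 ± 0.51 (edgeR adjusted p = 0.646). It rose by 1.71 ± 0.50 with etoposide (0.0472) and by 1.801 ± 0.46 with MMS (0.0406). The claspin turnover genes PLK1, USP7 (-1.09 ± 0.14) and FBXW11 (-0.49 ± 0.16) fell with doxorubicin, 3 of 5. Of 29 genes of the G1/S E2F group, 9 rose and 9 fell with doxorubicin, such as TK1 (1.12 ± 0.19) and SLBP (-1.93 ± 0.20), beside the same 21.9% and 20.6% of all genes. Of 22 genes of the G2/M group, 20 fell with doxorubicin, 15 with etoposide and 6 with MMS, and none rose, while 20.6%, 9.23% and 5.16% of all genes fell. With doxorubicin the G2/M genes were lower along with 6 of the checkpoint genes, and their part in the checkpoint values was not tested.

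With etoposide 7.97% of all genes rose and 9.23% fell. The sensors gave 1 higher and 3 lower of 16, and the mediators 0 and 2 of 14. RAD50 fell by 0.87 ± 0.21 and XRCC5, the Ku80 partner of DNA-PKcs, by 0.62 ± 0.15. The mediator BRE fell by 1.48 ± 0.18, and the cofactors RUVBL1 (-1.50 ± 0.19) and RUVBL2 (-0.64 ± 0.15) also fell, 2 of 8. With MMS 5.23% of all genes rose and 5.16% fell. The sensor RAD1 (0.63 ± 0.14) and the mediator RIF1 (0.59 ± 0.15) rose, and of 14 effectors 3 rose, CDC25A (1.00 ± 0.16) and MDM2 (0.86 ± 0.18) among them, and 3 fell with MMS. With paclitaxel no gene of these lists passed.

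The 10 genes were compared in pairs by Pearson's r over the 11 libraries, on log2(CPM + 0.5) with the mean of each line and title form removed. The median over 45 pairs was 0.34, from -0.65 for PRKDC and CLSPN to 0.88 for CHEK1 and TOPBP1, and 11 were below 0. The libraries share their controls, so these values only describe the 11 libraries. By the same measure the genes most like CHEK1 among 11283 were RIOK2 (0.994), MDM2 (0.994) and TGS1 (0.990), and among those most like CLSPN were RAB23 (0.975) and RAD1 (0.971). Among those most like ATR were CPSF2 (0.976) and FARSA (0.975), and those most like ATM were THEM4 (0.958), PURB (0.945) and METTL8 (0.941).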

How the data were processed

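Total RNA was sequenced for 11 libraries of MDA-MB231 and U2OS cells. The authors deposited, for each library, whole-number read counts per gene symbol. Per the submitters' processing notes, CASAVA 1.8.2, TopHat2 2.0.8b and HTSeq were used and the builds hg19 and mm9 are named, with no role given. The strand setting of the counting is not given in the sources used here. It is therefore not known whether reads of genes on opposite strands were told apart.

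Counts were fitted with edgeR 4.0.16 in R 4.3.3 (robust quasi-likelihood, TMM, filterByExpr, 15888 of 23228 genes). The model had 1 coefficient for each drug and a 3-level block (U2OS and the 2 MDA-MB231 title forms), with 4 residual degrees of freedom, and a further term for treated U2OS cells left 3. A call needed an adjusted p under 0.05 (Benjamini-Hochberg over all genes). The SE was taken as |log2 fold change| over the root of edgeR's F. Summary rows of unassigned reads stayed out, among them reads outside genes (7.16% to 9.7%) and reads labelled ambiguous (1.03% to 1.19%).

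Within a line, CPM + 0.5 was compared with DMSO, and 2-fold counts required a larger CPM of at least 5. Levels per kb used the GENCODE transcript with the longest coding sequence, and exon overlaps and pseudogenes come from the same annotation of another build than the counts. Alternatives were DESeq2 1.42.0, limma-voom (limma 3.58.1), other scalings, filters and blocks, and leaving out each library. The fits were also run on simulated counts with a small set of changed genes, which cannot check the scaling where many genes change. The 10 genes and all lists were chosen with earlier results of these data known. Named genes of other lists are the 4 largest called changes per drug or fewer, for likeness the 5 highest r or fewer, and MDM2 and CDKN1A, the kinases MTOR and SMG1 and the overlapping genes being added after values were seen. A few genes so selected are not reported here.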

Additional observations from a re-analysis of the deposited data

Results flagged for a closer look

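For 3 genes the U2OS and MDA-MB231 libraries of 1 drug moved in opposite directions, with counting intervals that do not reach 0 in either line. Each line has 1 library per drug, so the difference between lines was not tested for a single drug. ATRIP with doxorubicin had a log2 ratio of 0.768 in U2OS (interval 0.61 to 0.96) and -0.902 in MDA-MB231 (interval -1.15 to -0.71), and -0.67 in MDA-MB231 against DMSO replicate 2. ATM with MMS had -0.229 in U2OS and 0.317 in MDA-MB231. PRKDC with MMS had -0.688 in U2OS and 0.095 in MDA-MB231, where the value against the other DMSO library was 0.93.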

How the results depend on the processing

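Over 1300 values of single genes under the alternatives, 1157 kept their direction and side of the threshold, 32 lost a call and 32 gained one. The other 79 turned in sign with 0 of them past the threshold, and are given in the last paragraph. For etoposide (1 called) DESeq2 and limma-voom gave 3, DESeq2 size factors, total counts, no filter, a block for line alone and only the compared libraries gave 2, and no block gave 0. Leaving out single libraries gave 0 to 3. For doxorubicin (6 called) no block gave 0, only the compared libraries 3 and leaving out single libraries 2 to 7. For doxorubicin minus etoposide (5 called) no block gave 0 and leaving out single libraries 4 to 7. For MMS DESeq2 gave 1. For MMS minus etoposide DESeq2, limma-voom, DESeq2 size factors, total counts, no filter and a block for line alone gave 1, and leaving out single libraries 0 to 1. At 2-fold in single lines, doxorubicin in U2OS gave 4 with total counts and 2 with an offset of 0.1; in MDA-MB231 total counts and the other DMSO library each gave 1. Etoposide in MDA-MB231 gave 0 with total counts and 2 with the other DMSO library, where paclitaxel gave 1. The cause of these shifts was not tested.

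Over all genes the etoposide count of 2734 became 0 with no block, 49 without MDA-MB231 DMSO replicate 1, 290 without the MDA-MB231 etoposide library, 381 without the U2OS DMSO library and 1718 and 1738 without the MDA-MB231 and U2OS paclitaxel libraries. The doxorubicin count of 6748 became 1900 with no block, 4058 without MDA-MB231 DMSO replicate 1 and 4366 without the U2OS DMSO library, and that of doxorubicin minus etoposide went from 7367 to 1807 with no block. The MMS count of 1651 ranged from 0 (no block, or without the U2OS MMS library) to 2911 (DESeq2), and that of MMS minus etoposide from 1440 to 0 (no block) and 2796 (DESeq2). The paclitaxel count of 0 became 30 with only the compared libraries, and that of the line term became 2 with DESeq2 and 1 without either paclitaxel library. The line term could not be fitted without the U2OS DMSO library. No paired analysis was possible because the labels give no replicate numbers that pair libraries beyond the line, which the block holds. Each value of the 10 genes rests on 99 to 20154 reads. With 2 libraries per drug the model leaves 4 residual degrees of freedom. The edgeR estimate of each gene's spread therefore also draws on the spread of all genes.

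For the values whose sign turned, the log2 change as reported stands in parentheses, and the cause was not tested. For doxorubicin minus etoposide, MDC1 (-0.002) gave 0.026 with DESeq2, 0.002 with limma-voom, 0.026 with DESeq2 size factors in edgeR, 0.016 with no block and -0.067 to 0.016 without single libraries. ATR (0.025) gave -0.315 with total counts, -0.056 with no filter, -0.004 with a block for line alone and -0.329 to 0.348 without single libraries. ATRIP (0.317) gave -0.06 with total counts and -0.518 to 0.86 without single libraries. ATM (-0.071) gave -0.182 to 0.012 without single libraries. With doxorubicin, PRKDC (0.05) gave -0.173 with total counts, -0.035 with no filter, -0.239 with a block for line alone, -0.036 with no block, -0.035 with only the compared libraries and -0.101 to 0.253 without single libraries. ATRIP (0.067) gave -0.184 with total counts, -0.017 with no filter, -0.066 with only the compared libraries and -0.744 to 0.627 without single libraries. With etoposide, CHEK1 (-0.015) gave 0.107 with total counts, 0.05 with a block for line alone, 0.001 with only the compared libraries and -0.038 to 0.008 without single libraries. ATRIP (-0.25) gave -0.437 to 0.128 without single libraries. In the line term, CHEK1 (0.022) gave 0 with no filter, -0.034 with a block for line alone and -0.03 to 0.082 without single libraries. ATR (-0.154) gave 0.01 with a block for line alone and -0.48 to 0.023 without single libraries. ATRIP (0.489) gave -0.05 to 0.78 without single libraries. CLSPN (-0.082) gave -0.153 to 0.012 without single libraries. TP53BP1 (-0.093) gave -0.172 to 0.014 without single libraries. TOPBP1 (0.04) gave -0.039 to 0.172 without single libraries. With paclitaxel, ATRIP (0.026) gave -0.019 with a block for line alone, -0.005 with only the compared libraries and -0.356 to 0.428 without single libraries. TP53BP1 (0.033) gave -0.007 with a block for line alone and -0.036 to 0.072 without single libraries. ATM (-0.093) gave -0.159 to 0.035 without single libraries. MDC1 (0.058) gave -0.089 to 0.125 without single libraries. For MMS minus etoposide, CLSPN (-0.024) gave 0.055 with a block for line alone, 0.048 with no block, 0.01 with only the compared libraries and -0.176 to 0.089 without single libraries. With MMS, TP53BP1 (-0.174) gave 0.014 with no block. PRKDC (-0.276) gave -0.586 to 0.095 without single libraries. MDC1 (0.227) gave -0.035 to 0.437 without single libraries. ATM (0.053) gave -0.17 to 0.318 without single libraries. ATRIP (0.158) gave -0.011 to 0.357 without single libraries.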
